A study of Rattus norvegicus with 6 samples.

Results

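Cells from rat spinal cord were selected by the transcripts of 6 genes that mark astrocytes, and the selected cells of the libraries taken 1 day and 3 days after crush injury were compared. A cell passed when Aqp4, Slc1a2, Slc1a3, Gja1, Aldoc and Gfap together held at least 10 of every 10000 of its unique molecular identifiers (UMIs, 1 per captured RNA molecule). It also had at most 2 UMIs of the ciliary genes Ccdc153, Tmem212, Foxj1, Rsph1 and Dynlrb2, at most 2 of Olig1 and Olig2, and at most 20 per 10000 of C1qa and C1qb. These gated cells numbered 290 of 7360 at day 1 and 75 of 9263 at day 3, and 409 of 26847 over the 4 libraries of the time course. The intact library gave 17 of 2757 and the day 7 library 27 of 7467, and these are described as counts only.

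The study profiled all cells of the spinal cord by droplet single-cell RNA sequencing after a crush injury at thoracic level 10. The labels give animals of genotype SD aged 6 to 8 weeks, 5 animals per condition, and a section of 5 mm centred on the injury, dissociated with collagenase and trypsin. The groups are intact cord, for which the treatment field also names crush injury, and cord 1, 3 and 7 days after injury. Each group is 1 library. The 5 animals cannot be told apart in it, so no spread between animals was measured, no test between days was possible, and each interval covers counting error only. Gene names in these tables are in the mouse form, with 7654 of the Gm, Rik or ENSMUSG kind, although the labels give rat. Which species the reads come from was not settled.

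Astrocytes are the glial cells that take up glutamate and potassium around neurons and that contact vessels through end-feet rich in the water channel Aqp4. After injury they enlarge, make more of the intermediate filament protein Gfap, secrete matrix and signalling proteins, and in part divide and border the lesion. Ependymal cells, which line the central canal and carry motile cilia, and radial glia share several of the same transcripts, including Gfap after injury.

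Most UMIs of the gate genes were of Gfap, Gja1 and Aldoc, which are not limited to astrocytes. Gfap made up 74.2% of the UMIs of the 6 gate genes at day 1 and 53.2% at day 3. Gap junction protein Gja1, which is also made in endothelial cells and fibroblasts, made up 17.8% and 8.77%, and the glycolytic enzyme Aldoc 6.05% and 26.0%. The level of Gfap reached the limit by itself in 189 of 290 cells at day 1 and in 30 of 75 at day 3. Gja1 did so in 76 and 9 cells, and Aldoc in 25 and 22. The glutamate transporter Slc1a3, which astrocytes and radial glia make, held 1.31% and 9.98%, with UMIs in 51 of 290 cells and in 47 of 75. Aqp4 had 19 UMIs in 14 cells at day 1 and 7 UMIs in 7 cells at day 3. Slc1a2, the main glutamate transporter of mature astrocytes, had 17 UMIs in 9 cells and 13 UMIs in 10 cells. Aqp4 and Slc1a2 were read together in 2 cells at day 1 and in 0 of 75 at day 3. A floor of 3 cells in place of 0 would be 4.00%, which is a convention and not an exact bound. It concerns cells with UMIs of both and sets no limit on cells that express both.

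**Figure D1:**
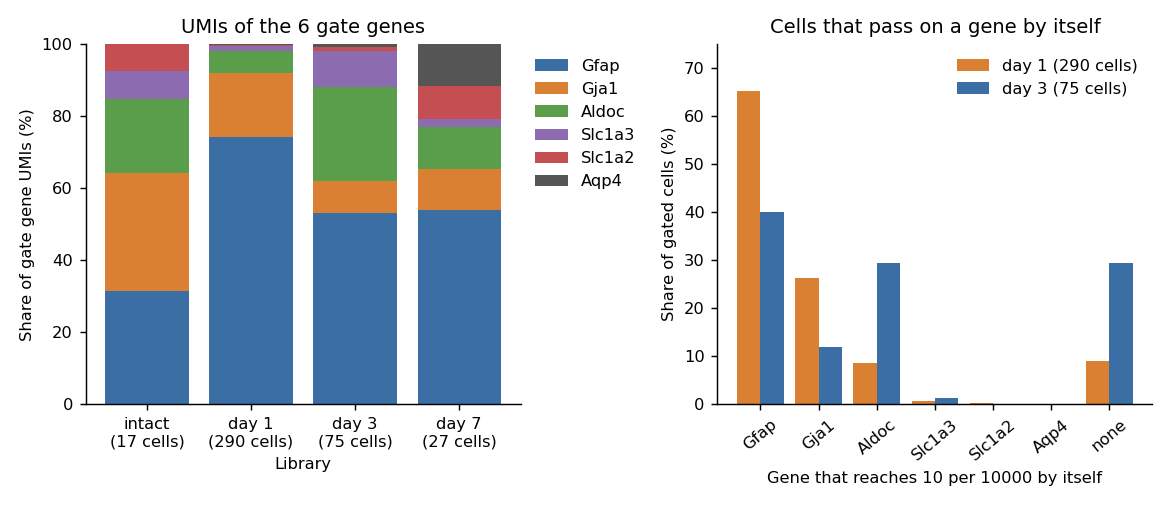
Left, share of the UMIs of the 6 gate genes that each gene held in the gated cells of each library (stacked bars, %). Right, share of the gated cells of day 1 and day 3 (%) in which a gene reached 10 per 10000 by itself; 1 cell can count under several genes, and "none" are cells that passed only on the sum. Gfap holds 74.2% of the gate UMIs at day 1, and Aqp4 and Slc1a2 are thin slices at both days.

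Other markers of astrocytes, which the gate did not use, were present. The 19 of them together held 5307 CPM at day 1 and 6256 CPM at day 3, against 1017 and 569.8 CPM in all cells outside the gate. Sox9, a glial transcription factor, was at 412 CPM (counts scaled to a total of 1000000; exact 95% interval 384 to 442) at day 1 and 427 (361 to 502) at day 3, against 50.7 and 16.9 in all cells outside the gate. The chaperone Clu was at 2038 and 1842 CPM and the metallothionein Mt3 at 1898 and 2509 CPM. Aldh1l1 was at 10.2 and 28.9 CPM, and the gap junction gene Gjb6 had 3 UMIs and 1 UMI. Of the 12 ependymal markers outside the gate, the summed level was 1786 CPM at day 1 and 4123 CPM at day 3, against 555 and 388 outside the gate. Otherwise gated cells with more than 2 ciliary UMIs numbered 504 and 237, more than the gated cells themselves, and held 6381 and 11932 CPM of the same 12 markers. They also held more of the 19 astrocyte markers than the gated cells did, at 10134 and 14064 CPM. The summed level of the 12 neuron markers was also above the rest of the library, at 1481 and 1059.5 CPM against 214 and 97.5. Only 4 of the 12 had at least 20 UMIs over both gated sums, so this level rests mostly on few genes. So the label of astrocytes is met in part: markers of astrocytes as a group stood above the other cells, but Aqp4 and Slc1a2 had few UMIs. The summed markers of ependymal cells stood above the other cells too, and so did the neuron sum, on few genes. The cells are called the gated cells here. The part of ependymal cells in the results was not tested.

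Some gated cells carried marks of other cell types. Endothelial genes (Cldn5, Pecam1, Cdh5, Flt1 and Egfl7 over 5 per 10000) marked 58 of the day 1 cells and 8 of the day 3 cells. Collagen genes (Col1a1, Col1a2, Col3a1, Dcn and Lum over 5 per 10000) marked 8 and 7, and S100a8 with S100a9 over 20 per 10000 marked 8 and 1. Without any of these marks, 220 cells of day 1 and 60 of day 3 remained, called the narrowed set. It was chosen after the values had been seen, and its values are given beside those of all gated cells. In the intact library 15 of 17 gated cells had the endothelial mark, and at day 7 20 of 27 had a mark of one kind.

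The limits of the gate fell within continuous distributions. At day 1, 17 cells lay at 10 to 11 per 10000 and 27 more at 9 to 10 failed. At day 3 these were 4 and 8 cells. Ciliary UMIs were 0, 1 and 2 in 123, 90 and 77 gated cells of day 1 and in 32, 21 and 22 of day 3, and 73 and 16 cells failed with exactly 3. The sum over the 6 genes had a median of 22.6 per 10000 (10.02 to 139) at day 1 and 18.6 (10.1 to 112) at day 3. Gated cells made up 3.94% (exact 95% interval 3.51 to 4.41) of the day 1 library and 0.810% (0.637 to 1.01) of the day 3 library. These shares also move with how many other cells each library holds.

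The gated sums held 1870800 UMIs at day 1 and 346382 at day 3, so levels at day 3 are the less precise. Median UMIs per gated cell were 6800.5 and 4244, whereas they were 5303 and 6685.5 in the cells outside the gate. Median mitochondrial shares in the gated cells were 3.68% and 4.27%. The 2 libraries shared 91 cell barcodes, 1.24% of the smaller library, and none was gated in both. The day 1 and day 3 tables were also written differently, with 28692 and 28615 rows and different spellings of some gene names. Anything that differed between the making of these libraries and the day itself cannot be told apart.

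Of 8434 genes with at least 20 UMIs over both sums, 771 were at least 2-fold higher at day 3 with a counting interval that left out 1 (9.14%). In the other direction, 658 genes were at least 2-fold lower (7.8%). The median log2 ratio of all genes read was -0.04. Scaling by TMM, a method that trims genes with extreme ratios, moved every log2 ratio by -0.16 and turned the share of higher among all calls from 54.0% to 39.6%. In the narrowed set the counts were 662 higher (8.82%) and 588 lower (7.83%) of 7506 genes. Of the 771 higher genes, 557 were also called higher there, and of the 658 lower genes 461 were also called lower.

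The genes that stood highest at day 3 included transporters and secreted proteins of glia. Fabp7, the brain fatty acid binding protein of radial glia and young astrocytes, had 34 UMIs in 23 cells at day 1 and 148 UMIs in 32 cells at day 3. Its level was 18.2 and 427 CPM, 23.5-fold higher (exact interval 16.1 to 35.2). One cell held 33.1% of its day 3 UMIs, and without the highest cell of each library its log2 ratio was 4.25 in place of 4.56. Kcnj10, the inward-rectifying potassium channel of astrocytes, was at 8.55 and 182 CPM, 21.3-fold higher (12.1 to 39.4), with UMIs in 10 of 290 and 28 of 75 cells. After each cell was thinned to 1000 UMIs, 1.03% of day 1 cells and 8.00% of day 3 cells had a Kcnj10 UMI, against 0 and 0.250% of phagocytes. For Fabp7 these shares were 1.38% and 17.3%, with 0.250% and 0.500% of phagocytes.

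Sparcl1, a matricellular protein of astrocytes and vessels that promotes synapse formation, was at 34.2 and 514 CPM, 15.02-fold higher (11.2 to 20.3). Its level outside the gate was 27.1 and 152 CPM, and 61.0% of thinned endothelial cells of day 3 had a UMI, so it is not limited to glia in these libraries. Gpx3, a secreted glutathione peroxidase, was at 18.2 and 280 CPM, 15.4-fold higher (10.3 to 23.5). The growth factor Ptn (pleiotrophin) was at 14.4 and 176 CPM, and its relative Mdk (midkine) at 71.1 and 410 CPM. Mdk was read in 82 of 290 cells and in 50 of 75, and no cell held more than 4.51% of its UMIs in a library. Nr4a3, an orphan nuclear receptor, was at 35.8 and 240 CPM, 6.69-fold higher (4.79 to 9.37), with 21.4 and 15.1 CPM outside the gate. Ank2, which anchors membrane proteins to the spectrin skeleton, was at 51.8 and 289 CPM, and Pbxip1, a partner of Pbx proteins, at 44.9 and 251 CPM. Ifitm1, an interferon-induced membrane protein, was at 54.5 and 196 CPM in the gated cells, while outside the gate it was at 252 and 119.

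The remaining genes ranked highest were Lox, Cthrc1 and Mgp, all made in connective tissue cells. Lox, which crosslinks collagen, had 52 UMIs at day 3, and 88.5% of them came from 1 cell. In the narrowed set Lox was at 1.25 and 6.74 CPM, too few UMIs to be read. Mgp, an inhibitor of calcification, drew 68.0% of its day 3 UMIs from 1 cell and was at 20.01 and 57.3 CPM in the narrowed set. All 8 fibroblast markers that were read were at least 2-fold higher in all gated cells, and 0 of the 10 in the list were read in the narrowed set. Col1a1 stood at 23.5 and 447 CPM in all gated cells and at 0.625 and 3.37 in the narrowed set.

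**Figure D2:**
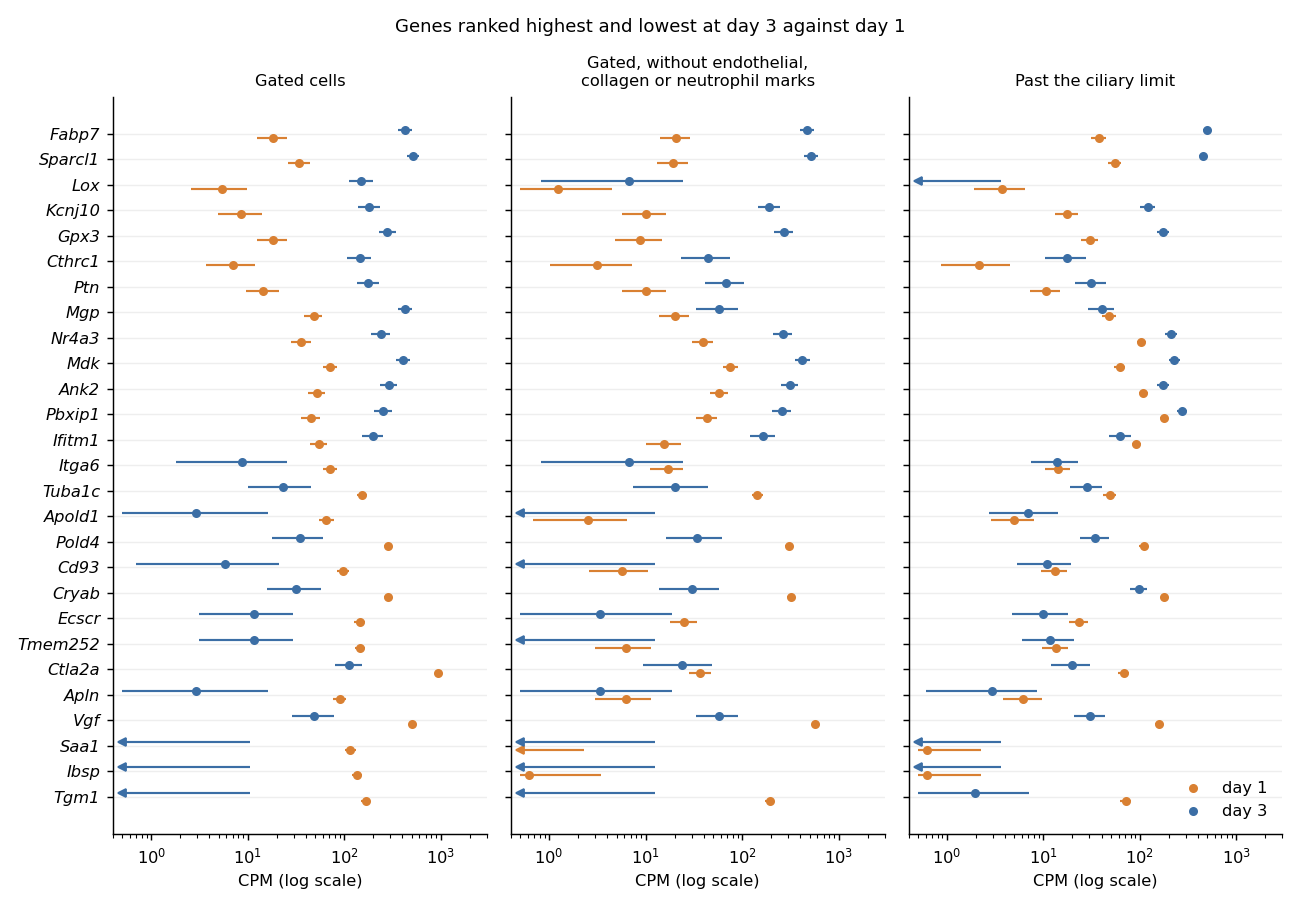
Levels at day 1 (orange) and day 3 (blue) of the genes ranked highest and lowest, in CPM on a log scale, in all gated cells, in the narrowed set and in cells past the ciliary limit. Points are sums over cells, lines are exact 95% Poisson intervals, and arrows at the left edge mark 0 UMIs. Fabp7, Kcnj10 and Mdk stand apart between days in all 3 panels, whereas Lox, Ctla2a and Cd93 lose most of their level in the middle panel.

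Genes of ion and metabolite transport in astrocytes leaned higher at day 3. Of 22 list members read, 7 were higher and 1 lower, and the median log2 ratio was 0.60. Slc4a4, a sodium bicarbonate cotransporter, was at 7.48 and 57.7 CPM, 7.72-fold higher (3.71 to 16.5). Gpm6b, a membrane glycoprotein, was at 45.4 and 205 CPM, and Mlc1, a protein of end-feet, was at 85.5 and 182 CPM. Hepacam, which places Mlc1 at cell contacts, was at 12.3 and 40.4 CPM. The lower gene was the glucose transporter Slc2a1, at 303 and 124 CPM. Slc2a1 is strong in endothelial cells, and it was at 119 and 43.8 CPM in the narrowed set.

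Over the 16 astrocyte markers read outside the gate, 6 were higher and 0 lower, with a median log2 ratio of 0.54. Besides Slc4a4, Mlc1, Hepacam and Kcnj10, these were Aldh1l1 and S100b, the latter at 94.1 and 254 CPM. Atp1b2, a sodium pump subunit, was at 267 and 136 CPM, just short of 2-fold. Ndrg2, another cytosolic marker, was at 248 and 280 CPM. In the narrowed set 7 were higher and 1 lower of 16 read.

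Transcription factors of glia were among the lists with the most members higher: 10 of 20 read were higher and 0 lower, with a median log2 ratio of 1.17. In the narrowed set 12 were higher and 0 lower of 19 read, against 8.82% and 7.83% over all genes read there. Rfx4, a factor of neural progenitors and astrocytes, was at 18.7 and 136 CPM, 7.25-fold higher (4.58 to 11.6), with UMIs in 34 of 290 and 30 of 75 cells. Pax6, which patterns progenitors of the ventral cord, was at 50.2 and 205 CPM. Nfia, required for the start of astrocyte formation, was at 130 and 430 CPM, and its relative Nfix at 90.3 and 292 CPM. Hopx, a homeodomain protein of radial glia, was at 7.48 and 46.2 CPM, and the Notch target Hey1 at 6.95 and 26.0 CPM on 13 and 9 UMIs. Sox9 itself had a ratio of 1.04 (0.864 to 1.24), and Sox2, at 177 and 274 CPM, was below 2-fold.

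A list of regional genes, which holds Hox genes of position along the body axis beside others, gave 8 higher and 0 lower of 18 read. The median log2 ratio was 0.97. Hoxc8, a gene of the thoracic cord, was at 29.9 and 113 CPM, and Hoxc6 was at 16.6 and 57.7 CPM. Crym, a thyroid hormone binding protein, was at 200 and 699 CPM. It was read in 109 of 290 cells and in 33 of 75. Outside the gate Crym was at 12.4 and 14.2 CPM. The list also holds Kcnj10, which is counted among the astrocyte markers too, so its count is not one of position genes alone.

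Among progenitor genes 6 were higher and 2 lower of 18 read. Dbi, which binds acyl-CoA and is abundant in radial glia, was at 1569 and 6351 CPM, 4.05-fold higher (3.83 to 4.28), and was read in 259 of 290 and 72 of 75 cells. Igfbp2, a binding protein of insulin-like growth factors, was lower, at 73.2 and 20.2 CPM. Of 23 genes of lipid handling 8 were higher and 0 lower. Scd2, a desaturase of fatty acids, was at 118 and 433 CPM, and the cholesterol exporter Abca1 at 20.3 and 118 CPM. Apoe, the main lipoprotein of the nervous system, was at 324 and 2159 CPM, but the cells outside the gate held 1079.5 and 19330 CPM. Phagocyte genes (Tyrobp, Fcer1g and Lyz2) stood in the gated sums at 4.51% and 6.83% of their outside level. With that share of the outside level subtracted, the log2 ratio of Apoe was 1.60 in place of 2.74. Leaving out the members below 0.5 of the outside level, such as Apoe, left 6 lipid genes.

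Genes of axon guidance and cell contact included some with low counts. Efnb3, an ephrin, was at 3.74 and 66.4 CPM on 7 and 23 UMIs, and 1 cell held 39.1% of the day 3 UMIs. Epha5, an ephrin receptor, was at 11.2 and 57.7 CPM, Robo1, a receptor of Slit proteins, at 8.55 and 37.5 CPM, and Ntn1 (netrin) at 17.1 and 57.7 CPM. The guidance list as a whole had 5 higher and 3 lower of 16 read, and 4 higher and 0 lower of 11 in the narrowed set. The adhesion list had 6 higher and 3 lower of 20. Among genes of developmental pathways (Notch, hedgehog, BMP and Wnt) 4 were higher and 1 lower of 22 read. Ptch1, the hedgehog receptor, was at 10.2 and 31.8 CPM and Notch2 at 26.7 and 57.7 CPM. Smo, which acts below Ptch1, was at 30.5 and 8.66 CPM on 57 and 3 UMIs, 3.52-fold lower (1.14 to 17.6). The synaptic list had 3 higher and 0 lower of 14 read, with a median log2 ratio of -0.07. Its amino acid transporters Slc38a1, at 70.02 and 202 CPM, and Slc38a2, at 64.1 and 144 CPM, were higher.

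Genes of the reactive state leaned lower at day 3. In a list of genes raised in reactive astrocytes of several injury models, 0 were higher and 5 lower of 11 read, with a median log2 ratio of -1.11. Hspb1, a small heat shock protein, was at 8150 CPM at day 1 and 1804 at day 3, 4.52-fold lower (4.17 to 4.90). It was read in 279 of 290 and 69 of 75 cells. Serpina3n, a serine protease inhibitor, was at 296 and 63.5 CPM, and Cd44, a hyaluronan receptor, at 220 and 86.6 CPM. Timp1, an inhibitor of metalloproteinases, was at 605 and 280 CPM, and 1 cell held 36.1% of its day 3 UMIs. Lcn2 (lipocalin) had 145 UMIs and 1 UMI, 26.8-fold lower (4.74 to 1068), but its 77.5 CPM at day 1 was below the 519 CPM of the cells outside the gate. Vim, the other intermediate filament gene of the list, was at 5322 and 7694 CPM, a ratio of 1.45. Outside the gate 9 members were lower and 0 higher of 12 read, so the gated cells shared this direction with the rest of their library.

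The list known as A2, genes induced in astrocytes after ischaemia, had 0 higher and 6 lower of 10 read, with a median log2 ratio of -1.39. Outside the gate 9 of 12 read were lower and 0 higher, and past the ciliary limit 7 of 10 were lower and 0 higher. This direction is therefore not particular to the gated cells. In the gated cells Tgm1, a transglutaminase, had 311 UMIs in 93 cells at day 1 and 0 UMIs at day 3. Against a floor of 3 counts over the day 3 sum it was at least 19.2-fold lower. Tm4sf1, a tetraspanin-like membrane protein, was at 5299.9 and 1588 CPM and was read in 282 of 290 and 68 of 75 cells. S100a10, the partner of annexin 2, was at 2087 and 563 CPM. Sphk1, which makes sphingosine phosphate, had 50 UMIs and 0, and Clcf1, a cytokine of the interleukin 6 family, was at 56.1 and 11.5 CPM. The A1 list, induced by endotoxin, had 1 higher and 0 lower of 8 read, near the 9.14% over all genes read. In the narrowed set 3 were higher and 0 lower of 6. The 1 called in all gated cells was Serping1, the inhibitor of complement C1, at 60.9 and 193 CPM. Outside the gate Serping1 was at 39.3 and 15.9 CPM, and in cells past the ciliary limit at 206 and 113.

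The lowest ranked genes outside these lists were led by Vgf, a secreted neuropeptide precursor. Vgf had 948 UMIs in 114 cells at day 1 and 17 UMIs in 3 cells at day 3, or 507 and 49.1 CPM, 10.3-fold lower (6.41 to 17.8). Thinned to 1000 UMIs, 16.9% of day 1 cells and 1.33% of day 3 cells had a Vgf UMI. Cryab, a small heat shock protein of glia, was at 283 and 31.8 CPM, 8.90-fold lower (4.94 to 17.9). Pold4, a subunit of DNA polymerase delta, was at 281 and 34.6 CPM, while outside the gate it was at 139 and 138. In the narrowed set Vgf was at 575 and 57.3 CPM, Cryab at 320 and 30.3 and Pold4 at 308 and 33.7.

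A second group of low ranked genes belonged to vessels. Ctla2a, Ecscr, Tmem252, Cd93, Apold1, Apln and Itga6 are strong in endothelial cells. Ctla2a was at 935 and 113 CPM in all gated cells and at 36.9 and 23.6 in the narrowed set. Cd93, a receptor on vessel walls, was at 97.3 and 5.77 CPM in all gated cells, and at 5.63 CPM and 0 UMIs in the narrowed set. Apln, a peptide of sprouting vessels, was at 90.3 and 2.89 CPM and, narrowed, at 6.25 and 3.37. Of the 12 endothelial markers read, 6 were lower and 2 higher in all gated cells, and of the 5 read in the narrowed set 0 were lower and 1 higher. Ibsp and Saa1 were lower on the strength of few cells, since 82.7% and 96.3% of their day 1 UMIs came from 1 cell each.

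Genes of the cytoskeleton and of cell movement leaned lower, with 1 higher and 14 lower of 44 read and a median log2 ratio of -0.78. Anxa2, which links membrane to actin, was at 1838 and 390 CPM, 4.72-fold lower (3.97 to 5.64). Tuba1c, an alpha tubulin, was at 153 and 23.1 CPM in the gated cells and at 124 and 116 outside the gate. Gap43, a growth cone protein, was at 251 and 77.9 CPM, and the actin-binding Tmsb10 at 2929 and 1175 CPM. The narrowed set gave 2 higher and 16 lower of 44 read.

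Genes of DNA replication were lower. Of 20 S-phase genes read, 12 were lower and 1 higher, with a median log2 ratio of -1.42. The helicase subunits Mcm3 and Mcm4 had 71 and 80 UMIs at day 1 and 1 UMI each at day 3. Mcm5 had 48 and 0, at least 2.96-fold lower, and Hells, a chromatin remodeller of replicating cells, had 79 and 1. After thinning to 1000 UMIs, 17.6% (13.4 to 22.5) of day 1 cells and 1.33% (0.0338 to 7.21) of day 3 cells had at least 2 UMIs of the list. In cells past the ciliary limit the shares were 5.36% and 5.49%.

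Genes of the G2 and M phases did not follow. The thinned share of gated cells with at least 2 UMIs of that list was 3.45% (1.67 to 6.25) at day 1 and 5.33% (1.47 to 13.1) at day 3, and these intervals overlap widely. Of 8 genes read 4 were higher and 0 lower, and all rest on few cells. Outside the gate 23 of the 26 read were higher and 0 lower. Cdc20, an activator of mitotic exit, had 14 UMIs in 2 cells at day 3, 71.4% of them in 1 cell. Top2a, Tpx2 and Cenpf drew 40.0%, 62.5% and 66.7% of their day 3 UMIs from 1 cell, and in the narrowed set 1 of the 6 read was higher. Tpx2 and Cenpf turned lower there, with 3.37 against 8.13 CPM and 6.74 against 8.13. Free RNA can also give such UMIs, and no number of dividing cells is read from them.

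**Figure D3:**
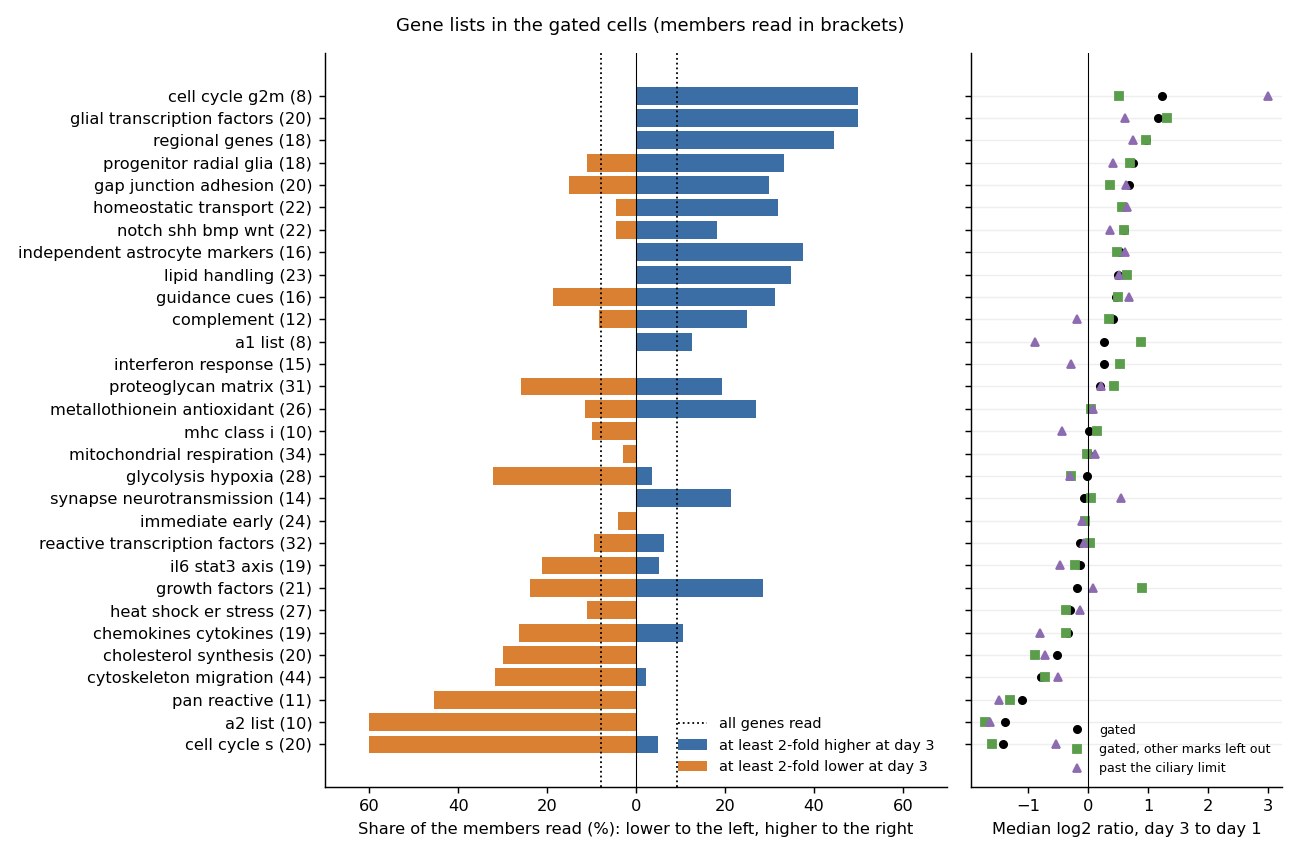
Left, share of the members read in each list (number in brackets) that were at least 2-fold lower (orange, to the left) or higher (blue, to the right) at day 3 in the gated cells; dotted lines mark the shares over all genes read, 7.8% and 9.14%. Right, median log2 ratio of day 3 to day 1 in all gated cells, the narrowed set and cells past the ciliary limit. S-phase, A2 and pan-reactive lists lie lowest, and glial transcription factors and regional genes lie among the highest in all gated cells and in the narrowed set.

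Metabolic genes differed in part. Of 28 genes of glycolysis and hypoxia 9 were lower and 1 higher, although the median log2 ratio was -0.03. Outside the gate 9 of 30 read were lower and 1 higher, and past the ciliary limit 2 of 29 were lower and 0 higher. Over all genes read, 7.8% were lower in the gated cells and 12.4% outside the gate. In the gated cells Eno1 (enolase) was at 648 and 248 CPM and Tpi1 (triose phosphate isomerase) at 492 and 205 CPM. Adm, a vasoactive peptide, was at 67.4 and 5.77 CPM and Ankrd37 had 64 UMIs and 0. At day 1 Adm was at 3.13 CPM and Ankrd37 at 8.76 CPM in the narrowed set, and both had 0 UMIs there at day 3. Of 24 genes of cholesterol synthesis and uptake read outside the gate 12 were lower and 0 higher, and past the ciliary limit 9 of 23 were lower and 1 higher. The gated cells shared this direction, with 6 lower and 0 higher of 20. Msmo1, a sterol oxidase, was at 176 and 83.7 CPM, Idi1, an isomerase, at 42.8 and 8.66, and Mvk, a kinase of the mevalonate pathway, had 47 UMIs and 1. Of 34 genes of mitochondrial respiration 1 was lower, Cycs (cytochrome c), at 413 and 156 CPM, which is below the 7.8% over all genes read.

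Of 27 genes of heat shock and endoplasmic reticulum stress 3 were lower and 0 higher: Hspb1, Cryab and the mitochondrial chaperonin Hspd1, at 332 and 165 CPM. Of 24 immediate early genes 1 was lower, Klf2, at 748 and 344 CPM. Over all genes read 7.8% were lower, so the lower counts of these 2 lists lie near the share of any genes. Fos was at 2971 and 4527 CPM and Jun at 939 and 1048, both below 2-fold. Among antioxidant genes 7 were higher and 3 lower of 26. Srxn1, a sulfiredoxin, was at 50.2 and 8.66 CPM and Gstp1, a glutathione transferase, at 86.6 and 28.9. Hmox1 and Selenop were higher, at 34.2 and 191 CPM and at 58.3 and 341 CPM, but both lay below 0.5 of the level outside the gate.

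Signals to other cells were lower in part, in the gated cells and outside the gate. Of 28 chemokines and cytokines read outside the gate 11 were lower and 0 higher. In the gated cells 5 were lower and 2 higher of 19, the higher ones near the 9.14% over all genes read. Il6 (interleukin 6) had 56 UMIs at day 1, 42.9% of them in 1 cell, and 1 UMI at day 3, 10.4-fold lower (1.79 to 417). Ccl2 was lower, at 195 and 63.5 CPM, and so was Ccl12, at 64.7 and 11.5 CPM. At day 1 the cells outside the gate held 1423 CPM of Ccl2 and 1886 CPM of Ccl12. Of 21 genes of the interleukin 6 and Stat3 axis read outside the gate 8 were lower and 0 higher. In the gated cells 4 were lower and 1 higher of 19, and 2 were lower and 2 higher of 15 in the narrowed set. Tnfrsf12a, a receptor of the tumour necrosis factor family, was at 332 and 92.4 CPM and Cebpb, a factor of acute phase genes, at 560 and 205. Stat3, at 97.3 and 139 CPM, and Socs3, at 276 and 341 CPM, were below 2-fold. Of 30 growth factors read outside the gate, 5 were higher and 11 lower. In the gated cells 6 were higher and 5 lower of 21 read, and 7 were higher and 3 lower of 17 in the narrowed set. Hbegf, a ligand of the epidermal growth factor receptor, was at 987 and 260 CPM, 3.80-fold lower (3.07 to 4.75), and was read in 246 of 290 and 40 of 75 cells.

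Matrix genes went both ways, with 6 higher and 8 lower of 31 read, and 9 higher and 4 lower of 26 in the narrowed set. Plaur, the urokinase receptor, was at 188 and 26.0 CPM, and Adamts9, a metalloproteinase, had 138 UMIs and 1, of which 7 and 1 were in the narrowed set. Of 32 reactive transcription factors read, 2 were higher and 3 lower, near the 9.14% and 7.8% over all genes read. Runx1, at 115 and 37.5 CPM, and Fosl1, at 42.8 and 8.66, were lower. Sox11, a factor of immature neural cells, was higher, at 13.9 and 43.3 CPM. Of 15 interferon response genes 0 were higher or lower in all gated cells, and 3 of the 8 read in the narrowed set were higher. Of 10 genes of class I antigen presentation 1 was lower, Psmb10, at 87.1 and 43.3 CPM, near the 7.8% over all genes read. In the narrowed set 2 were higher and 1 lower of 10 read. Complement genes gave 3 higher and 1 lower of 12, and of the higher ones C1qc, at 66.8 and 150 CPM, lay far below the 1539.6 and 3308 CPM outside the gate. With free RNA subtracted, C1qc and Ccl12 kept at most 3 UMIs at each day.

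The gated cells of both days were clustered together on genes outside the gate and fell into 6 clusters. Clusters 1 to 3 were each mostly of 1 library, and clusters 4 to 6 were set apart by endothelial, collagen and neutrophil genes. Cluster 1 held 123 cells of day 1 and 2 of day 3 and was led by genes that include Vgf and Tgm1. Cluster 2 held 76 and 1 cells and was led by Reg1, Serpina3n and Ndrg2, with Clu at 3212 CPM. Reg1 had UMIs in only 8 of these 77 cells, against 63 for Serpina3n and 58 for Ndrg2. Cluster 3 held 19 and 58 cells and was led by Nnat, Fabp7, Apoe, Itm2b and Mia. Nnat and Mia are on the ependymal list, and Aldoc reached 987 CPM there. Cluster 4 held 58 and 6 cells, all with the endothelial mark, and was led by Ctla2a, Igfbp7, Ly6a and Cldn5. In cluster 4 Gfap was at 29.9 CPM and Gja1 at 1282, so these cells passed the gate mainly on Gja1. Cluster 5 held 6 and 6 cells, all with the collagen mark, and was led by Apod and Dcn. Cluster 6 held 8 and 2 cells and was led by S100a8 and S100a9, neutrophil genes.

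These leading genes define the clusters and are given as a description. Clusters 1 to 3 had Gfap at 2047, 2950 and 2381 CPM and Sox9 at 481, 478 and 422 CPM. Aqp4 was at 1.03, 18.6 and 34.3 CPM in them. With 1 library per day, a cluster mostly of 1 library may be that library rather than a kind of cell. Whether the cells changed between the days or different cells passed the gate cannot be told apart.

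**Figure D4:**
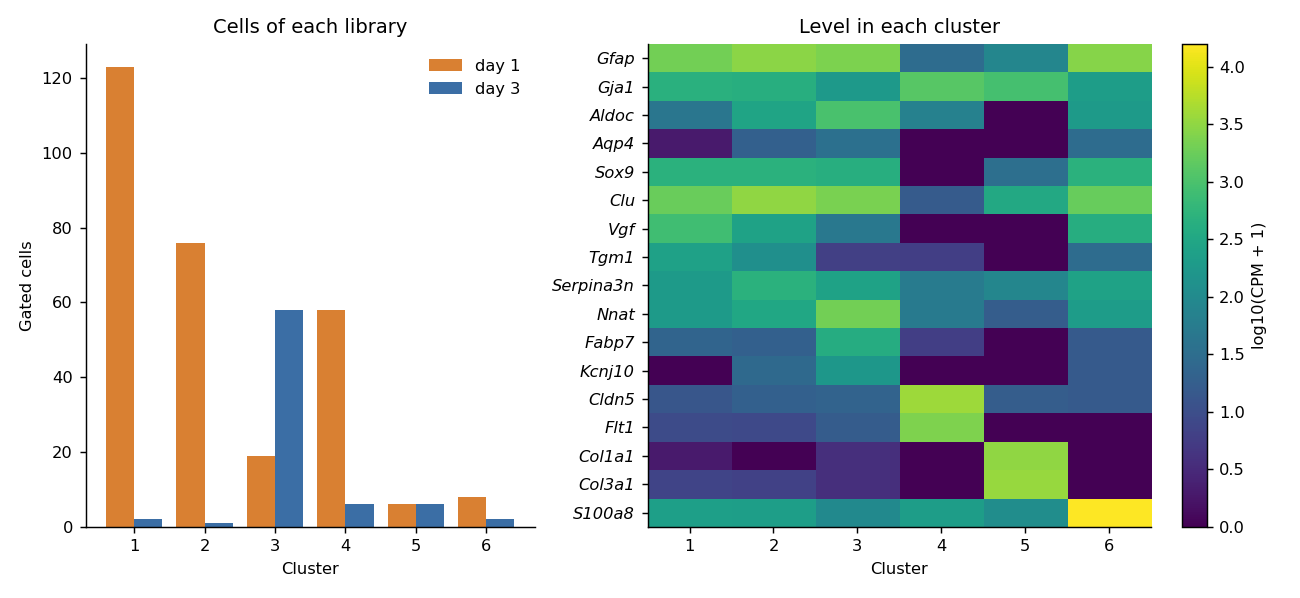
Left, number of gated cells of day 1 (orange) and day 3 (blue) in each of the 6 clusters. Right, level of 17 genes in each cluster as log10 of CPM plus 1, read from the colour scale. Clusters 1 and 2 are almost all day 1 cells, cluster 3 holds 58 of the 75 day 3 cells, and Cldn5, Col1a1 and S100a8 mark clusters 4, 5 and 6.

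The cells most like the gated ones were those that passed every limit but the ciliary one. Over 10212 genes read there, 756 were higher at day 3 (7.4%) and 639 lower (6.26%). Of the 771 genes higher in the gated cells, 223 were higher in these and 14 lower. Of the 658 lower genes, 225 were lower and 2 higher. In them Fabp7 was at 37.3 and 495 CPM, Kcnj10 at 17.4 and 120, Sparcl1 at 54.7 and 454 and Vgf at 158 and 30.3. Tgm1 was at 71.5 and 1.96 CPM, and Hspb1 at 10385 and 1410.4. Gfap, which helped to choose both sets, was at 3079 and 951 CPM past the ciliary limit and at 2216 and 1524 in the gated cells.

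Some genes had other values past the ciliary limit than in the gated cells. The S-phase list had 2 higher and 2 lower of 19 read there, near the 7.4% and 6.26% over all genes read there. The glial transcription factors had 5 higher and 0 lower of 21 read. Tuba1c was at 48.5 and 28.4 CPM, Cryab at 179 and 96.9, Smo at 29.8 and 32.3 and Igfbp2 at 38.5 and 39.2. Rorb, a nuclear receptor, was at 40.1 and 30.3 CPM there and at 37.4 and 98.2 in the gated cells. These differences between the sets were not tested.

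Among all cells outside the gate, 927 of 15565 genes were higher at day 3 (5.96%) and 1932 lower (12.4%). Of the 771 genes higher in the gated cells 88 were also higher outside and 43 lower. Of the 658 lower genes 268 were also lower outside and 2 higher. So a larger share of the lower genes, 40.7% against 11.4% of the higher ones, had the same call in the rest of the library. Astrocyte transport genes, with 2 higher and 10 lower of 34 read outside, went the other way there from the gated cells. The cells past the ciliary limit are part of that outside sum, and in them 7 were higher and 2 lower of 29 read. The direction is therefore not particular to the gated cells, and the part of the cell mix in the outside sum was not tested.

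In the other libraries the gated cells were few. At day 7, Aqp4 had 88 UMIs in 7 of 27 cells, Slc1a2 had 70 UMIs in 4 cells, and 3 cells had both. Gfap was read in 7 of these cells. In the intact library Aqp4 had 0 UMIs in 17 gated cells and Gja1 was read in 14 of them, while cells past the ciliary limit had Aqp4 UMIs in 76 of 175.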

How the data were processed

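The authors deposited UMI counts per gene and cell for 1 library per group. Counts were made with Cell Ranger 3.0.2, per the submitters' processing notes, and the genome build is not given in the sources used here. The 2 libraries injected with MPSS or PBS were not used. Gene names differed in spelling between tables, 28615 matched in all 4, and 77 further names were left out.

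Every deposited cell met the limits set here: a minimum of 200 genes and of 500 UMIs, and no more than 20% of UMIs from mitochondrial genes. Doublets were not called. For each set of cells the counts of a library were added up and scaled to CPM. Ratios of day 3 to day 1 carry exact binomial (Clopper-Pearson) 95% intervals, levels exact Poisson ones, all for counting error only. Genes with at least 20 UMIs over both sums were read and called at 2-fold when the interval left out 1. The interval, made with scipy 1.17.1, was run on simulated Poisson sums, which checks the calculation only. Such sums leave out that 1 cell can hold many of a gene's UMIs. There 97.0% of unchanged genes had an interval that held 1. Of genes set 4-fold higher 99% were called, and of genes set 4-fold lower 72.3%. Alternatives were other gate limits, TMM (edgeR 4.0.16) and median-of-ratios scaling, other minimum counts, thinning and subtraction of free RNA. Clusters came from scanpy 1.11.5 on 1000 variable genes, 15 components, 15 neighbours and Leiden resolution 0.5.

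Genes are named by a rule: at least 50 UMIs and 50 CPM on the higher day and 0.5 of the level outside the gate, then the 12 highest and 12 lowest by log2 ratio of CPM plus 10, the 6 each way that differ most from the other cells, and up to 4 called members of each list without that minimum. Markers of other cell types and other list members given beside them were chosen after their values were seen. The members and lists were chosen with earlier results of these data known. Some genes that the rule names are not reported here. No sequences are shown, since the gene names do not match the organism of the sequence tables.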

Additional observations from a re-analysis of the deposited data

How the results depend on the processing

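With 1 library per day no library could be left out, and the limits are the 75 cells of day 3, counting error and the mix of cells under the gate. No paired analysis was possible because the groups share only 1 replicate number and each is 1 library. Over all lists together, 83 members were higher and 90 lower. The members read over all lists were not counted, so no share stands against the 9.14% and 7.8% of all genes read. A gate at 5 per 10000 gave 579 and 171 cells at days 1 and 3, and one at 20 gave 156 and 34, with 473 higher genes. Stricter negative limits (ciliary and Olig genes at 0, C1q at most 5 per 10000) left 106 and 21 cells, with 312 higher genes, 343 lower genes and 52 higher list members. A further setting left out cells with over 5 per 10000 of the endothelial, neutrophil, fibroblast, mural, Schwann, oligodendrocyte or T and NK cell markers. It also left out cells with over 20 per 10000 of the macrophage and monocyte markers, and set no further limit on ependymal or neuron markers. This setting kept 17 and 6 cells, with 54 higher genes, 88 lower genes, 15 higher list members and 35 lower list members. Of the alternatives chosen after seeing the data, requiring 3 Gfap UMIs left 38 cells at day 3, and no ciliary limit gave 794 and 312 cells. Leaving out the cell with the most UMIs of each gene gave 483 higher genes. No minimum count gave 1184 higher genes, a minimum of 100 UMIs 174 higher genes, 356 lower genes and 37 higher list members, and thinning to 1000 UMIs 176 higher genes, 259 lower genes, 34 higher list members and 58 lower list members. The G2 and M share was 0.690% at day 1 with at least 3 UMIs, and 47.2% and 29.3% at days 1 and 3 without thinning. Leiden resolution 0.3 gave 3 clusters. 

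Of the 105 genes named by the rule and reported here, over 17 alternatives, 1406 values lay inside the counting interval of the reported ratio, 268 lay outside it in the same direction or in a gene not called, and 44 changed direction, in 31 genes. Where a setting left a gene at most 3 UMIs at each day, no ratio was read, and such cases are not in these counts. With the gate at 20 per 10000, the log2 ratios that changed direction were Cenpf -0.19, Tpx2 -0.19 and Apold1 0.20. In the narrowed set, they were Cenpf -0.27, Cd93 0.84, Tpx2 -1.27, Apold1 2.01, Adm 1.69, Ankrd37 0.21, Lrg1 0.014 and Tmem252 0.69. With no ciliary limit, it was Serping1 -0.20. With cells over the limits on other marker lists left out (17 and 6 cells, ependymal and neuron lists not applied), they were Cd44 0.0005988, Il6 1.19, Mvk 2.00, Crym -0.17, Psmb10 0.094, Tgm1 0.19, Cadm1 0.61, Cryab 1.19, Idi1 0.83, Ctla2a 2.00, Mcm4 2.00, Gstp1 0.83, Clcf1 1.19 and Fosl1 0.61. With at least 3 Gfap UMIs, they were Cd93 0.73, Tpx2 -0.74, Apold1 1.85, Adm 2.11, Ankrd37 0.62 and Tmem252 1.11. With the stricter negative limits, they were Notch2 -0.58, Il6 0.35, Msmo1 0.38, Mcm5 0.084, Ntn1 -0.79, Ccl2 0.45 and Sphk1 0.17. Without the highest cell, it was Saa1 1.02. With each cell thinned to 1000 UMIs, they were Mcm5 0.95, Cadm1 0.077, Sphk1 0.37 and Lifr 0.95. A sum of 0 UMIs was put at the floor of 3 counts, so a value with 0 UMIs at day 3 is a limit and not a measured rise. The cause was not tested beyond the smaller number of cells or UMIs in these settings.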
